A study of Homo sapiens with 12 samples.

Results

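Ribosome biogenesis genes encode the nucleolar proteins that transcribe, cut, modify and fold ribosomal RNA and assemble it with ribosomal proteins. The genes described here are a fixed list of 55 symbols, and every array probe annotated with 1 of these symbols belongs to them. Of the 55, 52 had such a probe (73 probes), and 51 were tested among 10333 genes in all. WDR43, GNL3 and DDX18 have no probe listed with a single symbol. The only probe for RRP1 was detected on 0 of 12 arrays.

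mRNA was measured on Illumina Human-WG6 BeadChips in SW-13 cells, an established human adrenal carcinoma line deficient in BRG1 (SMARCA4), the ATPase of the SWI/SNF chromatin remodelling complex. All cells carried an adenovirus, which expressed GFP (Ad-GFP) or a GFP-BRG1 fusion protein (Ad-BRG1) at a titre set to give the BRG1 level of HeLa cells. Each was left untreated or received IFNγ for 6 h, giving 4 groups of 3 arrays from biological replicates of 1 cell line, so that all comparisons concern that line only. The question was what BRG1 reconstitution and IFNγ each do to these transcripts, and whether the BRG1 effect depends on IFNγ.

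A ribosome begins as a long precursor RNA made by RNA polymerase I (Pol I) in the nucleolus. Small nucleolar ribonucleoproteins (snoRNPs) guide its chemical modification, the box C/D class for methylation and the box H/ACA class for pseudouridine. The small-subunit (SSU) processome cuts out and folds the RNA of the small (40S) subunit, while a separate set of assembly factors builds the large (60S) subunit, and output of the whole pathway rises and falls with cell growth.

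The 12 arrays had raw mean intensities of 539.9 to 666 and detected 15741 to 16828 probes each. IRF1, an early IFNγ target, was higher with IFNγ by 5.21 on the log2 scale in Ad-GFP cells and by 5.24 in Ad-BRG1 cells. The SMARCA4 probe did not separate the viruses (log2 difference -0.20, adjusted p = 0.11 in untreated cells), and its place relative to the viral cDNA is not given in the sources used here, so it does not check the virus labels. Of 8 adrenal steroid markers, 0 were detected on all arrays and 6 on none, so the labelled adrenal origin was not visible in these markers. Of 5 leukocyte markers with a probe, 0 were detected on all arrays, against 2 of 5 fibroblast and 1 of 6 endothelial or epithelial markers.

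Levels below are log2 intensities after background correction and quantile normalization. The BRG1 effect is Ad-BRG1 minus Ad-GFP, and a gene is called higher or lower when limma gives an adjusted p under 0.05 over all 10333 genes. SE is that of the difference between 3 and 3 arrays, and for the interaction that of the difference between the BRG1 effects with and without IFNγ.

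Promoter sequence is shown first for 5 of the genes. The arrays read mRNA levels, and promoter activity was not measured. RefSeq (GRCh38.p14) gave promoter windows, from 250 bases before to 50 after a start, for 49 of the 55 genes. A gene was counted if any of its windows held the letters. The letters CACGTG (an E-box, the palindrome bound by MYC and related factors) occurred on either strand in 19 of 49 genes (38.8%). They occurred in 10.9% of 15843 protein-coding genes and 8.775% of all 27305 genes with a window. CCGGAAG, the core letters bound by ETS family factors, occurred on either strand in 21 of 49 genes (42.9%). It occurred in 16.5% of protein-coding genes and 12.2% of all genes with a window. Related genes shared these letters. In the other biogenesis factors and ribosomal protein genes listed below, CCGGAAG was in 46.6% and 34.9%, and CACGTG in 30.7% and 6.35%. The 2 motifs cannot overlap each other, and the counts say nothing of whether a factor binds. Sequences were printed only for genes called lower with BRG1 both without and with IFNγ whose 250 bases hold the motif. They therefore cannot show a link between motif and BRG1 effect. The next 3 sequences are the 250 bases before the start of NOP16, WDR36 and WDR3, which hold CCGGAAG and are among the genes with the largest BRG1 effects. Capitals mark CCGGAAG or its reverse complement, which overlap in NOP16.
NOP16 (chr5:176388599-176388848, minus strand): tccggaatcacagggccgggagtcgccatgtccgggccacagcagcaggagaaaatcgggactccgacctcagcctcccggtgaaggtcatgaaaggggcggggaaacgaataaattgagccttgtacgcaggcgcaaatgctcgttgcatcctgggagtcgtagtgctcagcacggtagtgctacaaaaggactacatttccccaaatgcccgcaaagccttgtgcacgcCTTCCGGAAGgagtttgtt
WDR36 (chr5:111092098-111092347, plus strand): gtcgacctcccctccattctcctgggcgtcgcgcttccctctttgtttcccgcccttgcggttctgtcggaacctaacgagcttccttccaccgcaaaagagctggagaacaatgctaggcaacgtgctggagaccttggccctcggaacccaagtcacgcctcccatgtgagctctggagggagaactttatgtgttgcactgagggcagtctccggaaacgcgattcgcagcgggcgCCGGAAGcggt
WDR3 (chr1:117929489-117929738, plus strand): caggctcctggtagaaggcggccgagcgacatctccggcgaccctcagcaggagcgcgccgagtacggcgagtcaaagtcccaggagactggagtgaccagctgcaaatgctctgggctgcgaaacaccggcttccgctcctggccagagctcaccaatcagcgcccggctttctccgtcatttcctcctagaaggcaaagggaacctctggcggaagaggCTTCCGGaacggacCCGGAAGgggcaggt
The following pair, DDX21 and NOP10, hold the E-box, which is in capitals. Their BRG1 effects in untreated cells were -0.69 and -0.24. NOP10 has 2 of them.
DDX21 (chr10:68956397-68956646, plus strand): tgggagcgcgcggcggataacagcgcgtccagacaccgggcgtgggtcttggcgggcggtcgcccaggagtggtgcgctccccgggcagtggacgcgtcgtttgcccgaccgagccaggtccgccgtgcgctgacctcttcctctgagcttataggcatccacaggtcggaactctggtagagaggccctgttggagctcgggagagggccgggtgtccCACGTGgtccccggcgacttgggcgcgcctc
NOP10 (chr15:34343137-34343386, minus strand): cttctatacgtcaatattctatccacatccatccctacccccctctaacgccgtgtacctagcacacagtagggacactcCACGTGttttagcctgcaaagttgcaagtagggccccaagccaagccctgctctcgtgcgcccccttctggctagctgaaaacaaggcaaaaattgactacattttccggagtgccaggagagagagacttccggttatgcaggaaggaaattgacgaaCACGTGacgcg

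Of the other letters searched on either strand, the E-box variant CACGCG was in 16 of 49 genes (32.7%, against 18.1% of protein-coding genes). The variant CATGTG was in 3 (6.12%, against 11.5%). The GC box GGGCGG was in 36 (73.5%, against 64.3%), CCAAT in 22 (44.9%, against 42.1%) and TATAAA in 2 (4.08%, against 12.4%). The CRE letters TGACGTCA were in 3 (6.12%, against 475 of 15843 protein-coding genes) and the E2F letters TTTCCCGC in 2 (4.08%, against 2.65%). Among tested genes, the median BRG1 effect in untreated cells was -0.34 for the 17 with CACGTG and -0.38 for the 29 without it. For CCGGAAG these medians were -0.45 (21 genes) and -0.32 (25 genes). All 4 medians were below 0.

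In untreated cells, most ribosome biogenesis genes were lower in the presence of BRG1. Of the 51 tested, 40 were called lower and 0 higher, against 30.3% of all genes called lower and 26.7% called higher. At an unadjusted p under 0.05 limma gave 42 lower and 0 higher, against 3367 lower and 2946 higher of all 10333 genes. The median BRG1 effect of the 51 was -0.38, against -0.03 for all genes tested. All 3 Ad-BRG1 arrays lay below all 3 Ad-GFP arrays for 40 of the 51, against 33.3% of all genes. In bulk RNA, less RNA per cell and fewer cells of a type cannot be told apart.

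With IFNγ the fall was of similar breadth. Limma called 43 of the 51 lower and 0 higher (background 32.8% and 28.3% of all genes), with a median of -0.49 against -0.03. At an unadjusted p under 0.05 it gave 44 lower and 0 higher, against 3596 lower and 3095 higher of all 10333 genes. The groups did not overlap, with Ad-BRG1 lower, for 43 genes, against 35.2% of all genes. The 2 BRG1 comparisons share no array. Of the 51 genes, 37 were called lower in both, 3 only in untreated cells, 6 only with IFNγ and 5 in neither, while 2425 of all 10333 genes were lower in both. Across the 51 genes the 2 effects correlated at Pearson's r 0.63 and Spearman's rho 0.62 as a description, genes not being independent replicates.

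**Figure D1:**
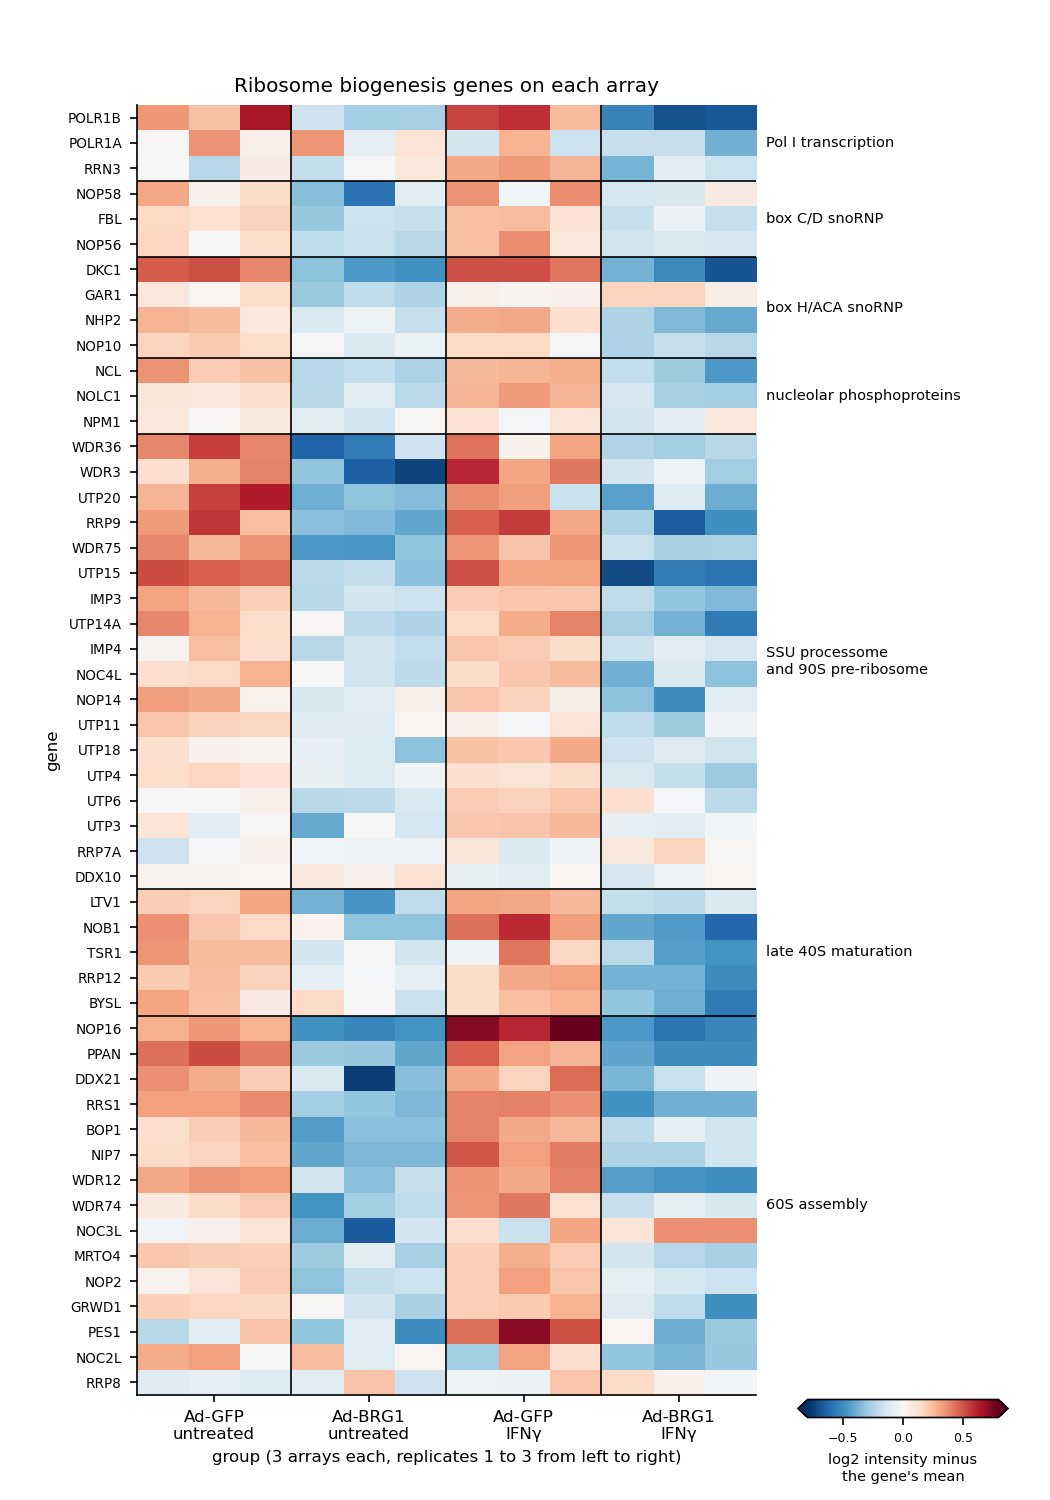
Log2 intensity of the 51 tested genes (rows, by role) on each of the 12 arrays (columns, 4 groups of 3), minus the mean of the gene, where blue is below and red above that mean and the colour scale ends at 0.8 in either direction. Most rows are red in both Ad-GFP blocks and blue in both Ad-BRG1 blocks. Rows that depart from this include GAR1 and NOC3L, whose mean on the IFNγ-treated Ad-BRG1 arrays is above that of the gene, and RRN3 and PES1, whose mean on the untreated Ad-GFP arrays is below it.

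The shift could be seen before any normalization. The median raw intensity over these genes was 1613 to 1898 on the 6 Ad-GFP arrays and 1064 to 1331 on the 6 Ad-BRG1 arrays, which did not overlap. After normalization the median level in untreated cells was 10.59 ± 0.06 (SD, n = 3) for Ad-GFP and 10.18 ± 0.08 for Ad-BRG1. IFNγ-treated cells gave 10.61 ± 0.10 for Ad-GFP and 10.21 ± 0.09 for Ad-BRG1. Over all probes, raw mean intensity was 539.9 to 571 on the IFNγ-treated Ad-BRG1 arrays and 571 to 650.0 on the IFNγ-treated Ad-GFP arrays, which overlap at 571. With the authors' scaling, which sets every array to 1 mean, the median BRG1 effect with IFNγ was still negative (-0.38).

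Of the 51 genes, 49 were detected on every array. Without and with IFNγ, 39 and 42 of these 49 were called lower, against 30.3% and 32.8% of all genes. UTP20 and POLR1A each had a group in which no array detected them, and they are described with their roles.

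Pol I transcription was represented by 3 genes, of which 1 (33.3%) was called lower without and 2 with IFNγ. Of all genes, 30.3% and 32.8% were called lower, so the untreated count was near that share. POLR1B, the second-largest subunit of Pol I (gene identifier 84172), read 6.68, 6.57 and 6.98 on the untreated Ad-GFP arrays and 6.17, 6.06 and 6.07 on the untreated Ad-BRG1 arrays. Its IFNγ-treated arrays read 6.87, 6.91 and 6.59 for Ad-GFP against 5.80, 5.63 and 5.66 for Ad-BRG1. The viruses did not overlap in either state, and the Ad-BRG1 arrays with IFNγ were the lowest of the 12. POLR1B was 1.56-fold lower without IFNγ (log2 difference -0.64, SE 0.11, adjusted p = 0.00033) and 2.14-fold lower with it (-1.10, SE 0.11, adjusted p = 3.3e-06). Its signal is dim, and without background correction the value with IFNγ shrank to -0.34, still called. A second POLR1B probe gave -0.77 and -0.86, both called lower. POLR1A, the largest and catalytic subunit, was not called in untreated cells (-0.01, adjusted p = 0.97). With IFNγ it was not above background on any Ad-BRG1 array, where it was at least 1.13-fold lower, a bound that was not tested. The difference between the values as read was not called by limma (adjusted p = 0.17).

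RRN3, the initiation factor that joins Pol I to its promoter, was called lower with BRG1 in 1 state only. Untreated arrays read 7.13, 6.91 and 7.21 for Ad-GFP against 6.94, 7.13 and 7.22 for Ad-BRG1, which overlap. IFNγ-treated arrays read 7.44, 7.48 and 7.41 against 6.77, 7.05 and 6.96, which do not. The effect was 0.02 (SE 0.10) without and -0.52 (SE 0.10, adjusted p = 0.00063) with IFNγ. The difference between these effects is given with the interaction, and its call was lost under 10 of 19 alternatives. RRN3, NPM1 and RRP7A have close copies elsewhere in the genome, and whether their probes tell these apart was not tested.

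All 3 box C/D snoRNP genes were lower in untreated Ad-BRG1 cells and 2 of 3 with IFNγ, against 30.3% and 32.8% of all genes. FBL (fibrillarin), the methyltransferase of the particle, fell 1.30-fold without (-0.38, SE 0.07) and 1.27-fold with IFNγ (-0.34, SE 0.07). NOP56, a scaffold protein, fell by 0.30 and 0.37 on the log2 scale. NOP58, its partner in the scaffold, had the largest fall of the class in untreated cells (-0.50, SE 0.14, adjusted p = 0.0073), and its -0.30 with IFNγ was not called (adjusted p = 0.075).

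DKC1 (dyskerin), the pseudouridine synthase of the box H/ACA snoRNP (gene identifier 1736), was among the genes that fell most in both states. It read 12.68, 12.71 and 12.59 on the untreated Ad-GFP arrays against 11.88, 11.74 and 11.72 for Ad-BRG1. After IFNγ the Ad-GFP arrays read 12.72, 12.72 and 12.63 and the Ad-BRG1 arrays 11.82, 11.69 and 11.51. Every Ad-BRG1 array was below every Ad-GFP array, and IFNγ did not part the arrays of either virus. The fall was 1.85-fold without IFNγ (-0.89, SE 0.08, adjusted p = 1.7e-06) and 2.02-fold with it (-1.01, SE 0.08, adjusted p = 4.2e-07).

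The genes of the other 3 H/ACA proteins were lower in untreated Ad-BRG1 cells, and 2 of them with IFNγ, against 30.3% and 32.8% of all genes. NHP2, a core RNA-binding protein, was lower by -0.32 and -0.58, and the small core protein NOP10 by -0.24 and -0.32. GAR1, which binds dyskerin, read 12.05, 11.98 and 12.11 for Ad-GFP against 11.67, 11.77 and 11.72 for Ad-BRG1 in untreated cells. After IFNγ the 3 Ad-GFP arrays lay between 11.99 and 12.01, and the Ad-BRG1 arrays read 12.14, 12.14 and 12.01. Its untreated Ad-BRG1 arrays thus stood below the other 9. GAR1 was 1.26-fold lower without IFNγ (-0.33, SE 0.06, adjusted p = 0.00065) and its 0.10 with IFNγ was not called (adjusted p = 0.18).

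Among the nucleolar phosphoproteins, 2 of 3 were lower in each state, against 30.3% of all genes without and 32.8% with IFNγ. NCL (nucleolin), which binds rDNA chromatin and precursor RNA, fell 1.41-fold without (-0.49, SE 0.07) and 1.50-fold with IFNγ (-0.59, SE 0.07). NOLC1, a chaperone of snoRNPs, was lower by -0.28 and -0.52. NPM1 (nucleophosmin), an abundant histone and ribosome chaperone, was called in neither state. After normalization it read 15.36, 15.29 and 15.36 against 15.18, 15.12 and 15.29 in untreated cells, where the viruses overlap. Its effect was -0.14 (95% interval -0.30 to 0.03) without and -0.12 (-0.28 to 0.04) with IFNγ. Before normalization the viruses did not overlap in either state. Raw NPM1 intensities were 42119 to 47046 for Ad-GFP against 37611 to 40166 for Ad-BRG1 untreated, and 38783 to 46901 against 31689 to 36240 with IFNγ.

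**Figure D2:**
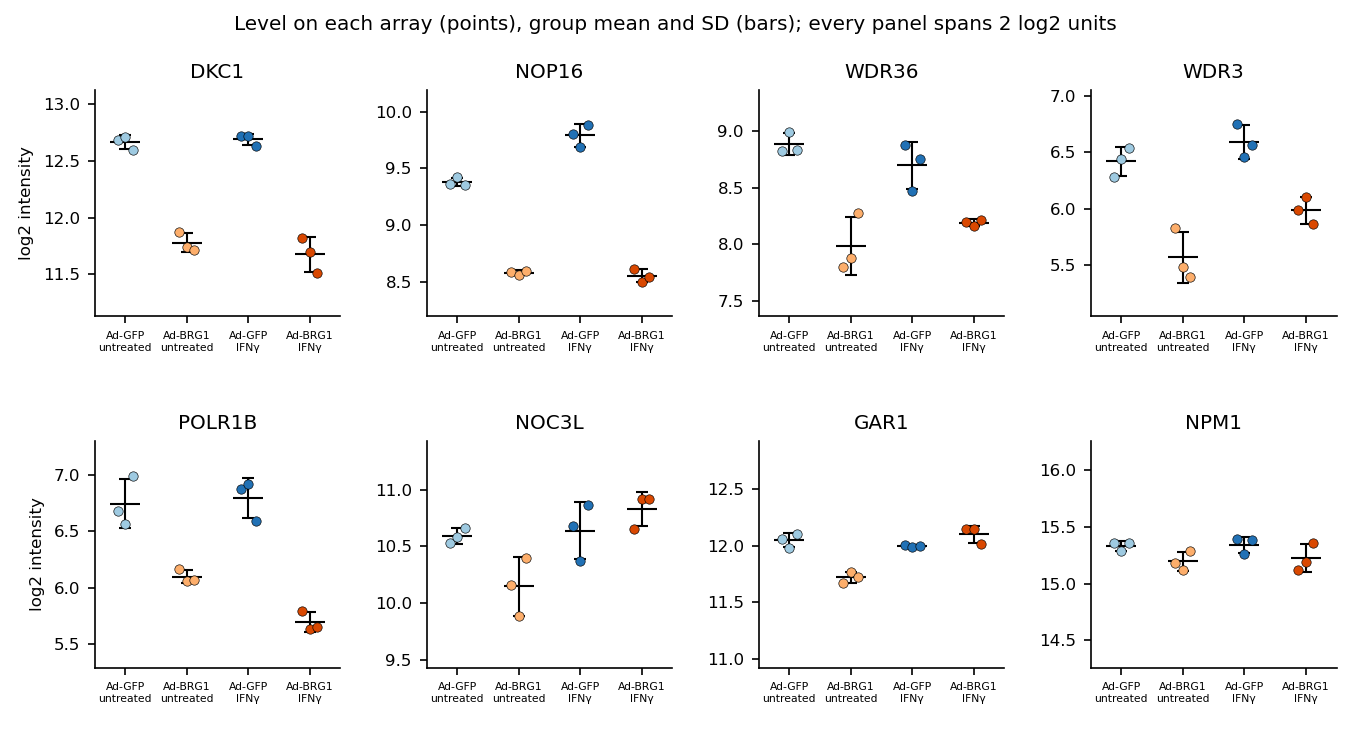
Log2 intensity of 8 ribosome biogenesis genes on each of the 12 arrays (points), with the mean and SD (n = 3) of each group; every panel spans 2 log2 units. DKC1, NOP16, WDR36, WDR3 and POLR1B are lower on all Ad-BRG1 arrays in both states, NOC3L and GAR1 in untreated cells only, and NPM1 was called in neither.

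For the SSU processome and 90S pre-ribosome there were 18 tested genes. Of these, 14 were lower without and 16 with IFNγ, against 30.3% and 32.8% of all genes. WDR36, a subunit of the UTP-B complex of the processome (gene identifier 134430), had the largest fall in untreated cells. It read 8.82, 8.99 and 8.83 for Ad-GFP against 7.80, 7.88 and 8.27 for Ad-BRG1. IFNγ-treated arrays read 8.88, 8.47 and 8.75 against 8.20, 8.16 and 8.22. Neither pair of groups overlapped, though 1 untreated Ad-BRG1 array (8.27) was closer to the controls. WDR36 was 1.86-fold lower without IFNγ (-0.90, SE 0.12, adjusted p = 5.3e-05) and 1.42-fold lower with it (-0.51, SE 0.12, adjusted p = 0.0034).

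WDR3, another UTP-B subunit (gene identifier 10885), read 6.28, 6.44 and 6.54 on the untreated Ad-GFP arrays against 5.83, 5.49 and 5.40 for Ad-BRG1. After IFNγ it read 6.75, 6.46 and 6.56 against 5.99, 6.11 and 5.87. All 6 Ad-BRG1 arrays were below all 6 Ad-GFP arrays. The fall was 1.80-fold without IFNγ (-0.85, SE 0.12, adjusted p = 5.8e-05) and 1.52-fold with it (-0.60, SE 0.12, adjusted p = 0.00074). Without background correction the untreated difference shrank to -0.30, still called, the WDR3 signal being dim.

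UTP15, of the UTP-A complex that also acts in Pol I transcription, had the largest fall of this role with IFNγ. It read 7.20, 7.15 and 7.12 for Ad-GFP against 6.46, 6.49 and 6.34 for Ad-BRG1 in untreated cells. After IFNγ the 3 Ad-GFP arrays lay between 6.99 and 7.19, and the Ad-BRG1 arrays read 5.96, 6.11 and 6.09. The Ad-BRG1 arrays with IFNγ were the lowest of the 12. UTP15 fell 1.66-fold without (-0.73, SE 0.07) and 2.01-fold with IFNγ (-1.01, SE 0.07, adjusted p = 2e-07). WDR75, of the same complex, was lower by -0.75 and -0.54, and UTP4, also of this complex, by -0.21 and -0.33.

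RRP9, which binds the U3 snoRNA, was lower by -0.75 without and -0.92 with IFNγ. IMP3 and IMP4, which pair U3 with the precursor RNA, were lower by -0.44 and -0.50 and by -0.32 and -0.32. Falls were called in both states for UTP14A (-0.42 and -0.69), NOP14 (-0.28 and -0.46), NOC4L (-0.31 and -0.48), UTP18 (-0.23 and -0.40) and UTP11 (-0.25 and -0.22) too. UTP3 and UTP6 were called lower with IFNγ only (-0.29 and -0.23), their untreated values of -0.19 and -0.20 having adjusted p of 0.099 and 0.051. RRP7A (0.02 and 0.11) and the helicase gene DDX10 (0.06 and -0.01) were called in neither state. For DDX10 the arrays spanned only 9.94 to 10.19 over all 12.

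UTP20, a large scaffold protein of the processome, was not above background on any Ad-BRG1 array. Its Ad-GFP arrays read 5.75, 6.02 and 6.11 untreated (3 of 3 detected) and 5.85, 5.81 and 5.30 after IFNγ (2 of 3 detected). On the Ad-BRG1 arrays it read 5.09, 5.15 and 5.13 without and 5.04, 5.37 and 5.08 with IFNγ, which are bounds. Raising these to the lowest detected level of each array (5.35 to 5.44), UTP20 was at least 1.49-fold lower without IFNγ and at least 1.19-fold lower with it. These bounds were not tested. UTP20 passed the detection filter only through the untreated Ad-GFP group, where it is high. It is counted among the 40 and 43 genes called lower. Those UTP20 calls rest on Ad-BRG1 readings not above background, so they are no separate evidence of a fall.

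Late maturation of the 40S subunit gave 5 genes, 4 lower without and all 5 with IFNγ, against 30.3% and 32.8% of all genes. LTV1, a factor of the exported pre-40S particle, had the largest untreated fall (-0.58, SE 0.07, adjusted p = 2.9e-05) and fell by 0.47 with IFNγ. NOB1, the nuclease that makes the final cut in small-subunit RNA, had the largest fall with IFNγ, 1.94-fold (-0.95, SE 0.11), against 1.37-fold without. TSR1, a GTPase-like factor of the late particle, was lower by -0.38 and -0.57. RRP12, an export factor in yeast, read 10.32, 10.35 and 10.29 for Ad-GFP against 10.03, 10.10 and 10.04 for Ad-BRG1 in untreated cells. After IFNγ it read 10.25, 10.41 and 10.43 against 9.73, 9.73 and 9.60. Its viruses did not overlap in either state, and it was lower by -0.26 (SE 0.07) and -0.68 (SE 0.07). BYSL (bystin), needed for late 40S maturation, was not called in untreated cells (-0.22, adjusted p = 0.079) and was 1.56-fold lower with IFNγ (-0.65, SE 0.10).

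Assembly of the 60S subunit gave 15 tested genes, 12 lower without and 13 with IFNγ, against 30.3% and 32.8% of all genes. NOP16, an early 60S assembly factor (gene identifier 51491), read 9.36, 9.42 and 9.36 on the untreated Ad-GFP arrays against 8.59, 8.55 and 8.60 for Ad-BRG1. IFNγ-treated arrays read 9.80, 9.69 and 9.88 against 8.61, 8.50 and 8.55. The Ad-GFP arrays with IFNγ stood above the untreated ones, while the Ad-BRG1 arrays of both states lay together. NOP16 was 1.74-fold lower without IFNγ (-0.80, SE 0.06, adjusted p = 5.6e-07) and 2.36-fold lower with it (-1.24, SE 0.06, adjusted p = 7.9e-09), the largest BRG1 effect among the 51 genes in that state. NOP16, POLR1B, DKC1 and UTP15 were the 4 genes called with 2-fold or more, all with IFNγ. In that state 295 of all 10333 genes were called lower by 2-fold or more.

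The PeBoW complex, which processes large-subunit RNA, is made of PES1, BOP1 and WDR12. BOP1 was lower by -0.57 and -0.47 and WDR12 by -0.56 and -0.82, called in both states. PES1 read 6.47, 6.61 and 6.93 for Ad-GFP against 6.39, 6.60 and 6.19 for Ad-BRG1 in untreated cells. After IFNγ it read 7.14, 7.42 and 7.21 against 6.71, 6.30 and 6.40. The untreated groups overlap and those with IFNγ do not. PES1 was called lower only with IFNγ (-0.78, SE 0.14, adjusted p = 0.00045), its untreated value being -0.28 (adjusted p = 0.12).

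PPAN (Peter Pan), a 60S maturation factor, was lower by -0.80 and -0.83 and RRS1, which brings the 5S particle into the 60S precursor in yeast, by -0.66 and -0.81. NIP7 (-0.57 and -0.63), the helicase DDX21 (-0.69 and -0.50), MRTO4 (-0.41 and -0.44), the RNA methyltransferase NOP2 (-0.34 and -0.38) and GRWD1, a chaperone of a ribosomal protein, (-0.31 and -0.49) were called lower in both states. WDR74 was lower on its brightest probe (-0.46 and -0.42) and on a second one (-0.53 and -0.79), but its remaining probe that passed the filter was called higher (0.28 and 0.55), so its direction depends on the probe. NOC2L was called lower only with IFNγ (-0.39, adjusted p = 0.029). RRP8, a nucleolar methyltransferase, was called in neither state (0.08 and 0.01).

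NOC3L, the partner of NOC2L in yeast, read 10.53, 10.58 and 10.66 for Ad-GFP against 10.16, 9.88 and 10.40 for Ad-BRG1 in untreated cells. After IFNγ it read 10.68, 10.37 and 10.87 against 10.65, 10.92 and 10.92. Only the untreated groups were apart. NOC3L was 1.36-fold lower without IFNγ (-0.45, SE 0.14, adjusted p = 0.016), and its 0.19 with IFNγ was not called (adjusted p = 0.26).

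**Figure D3:**
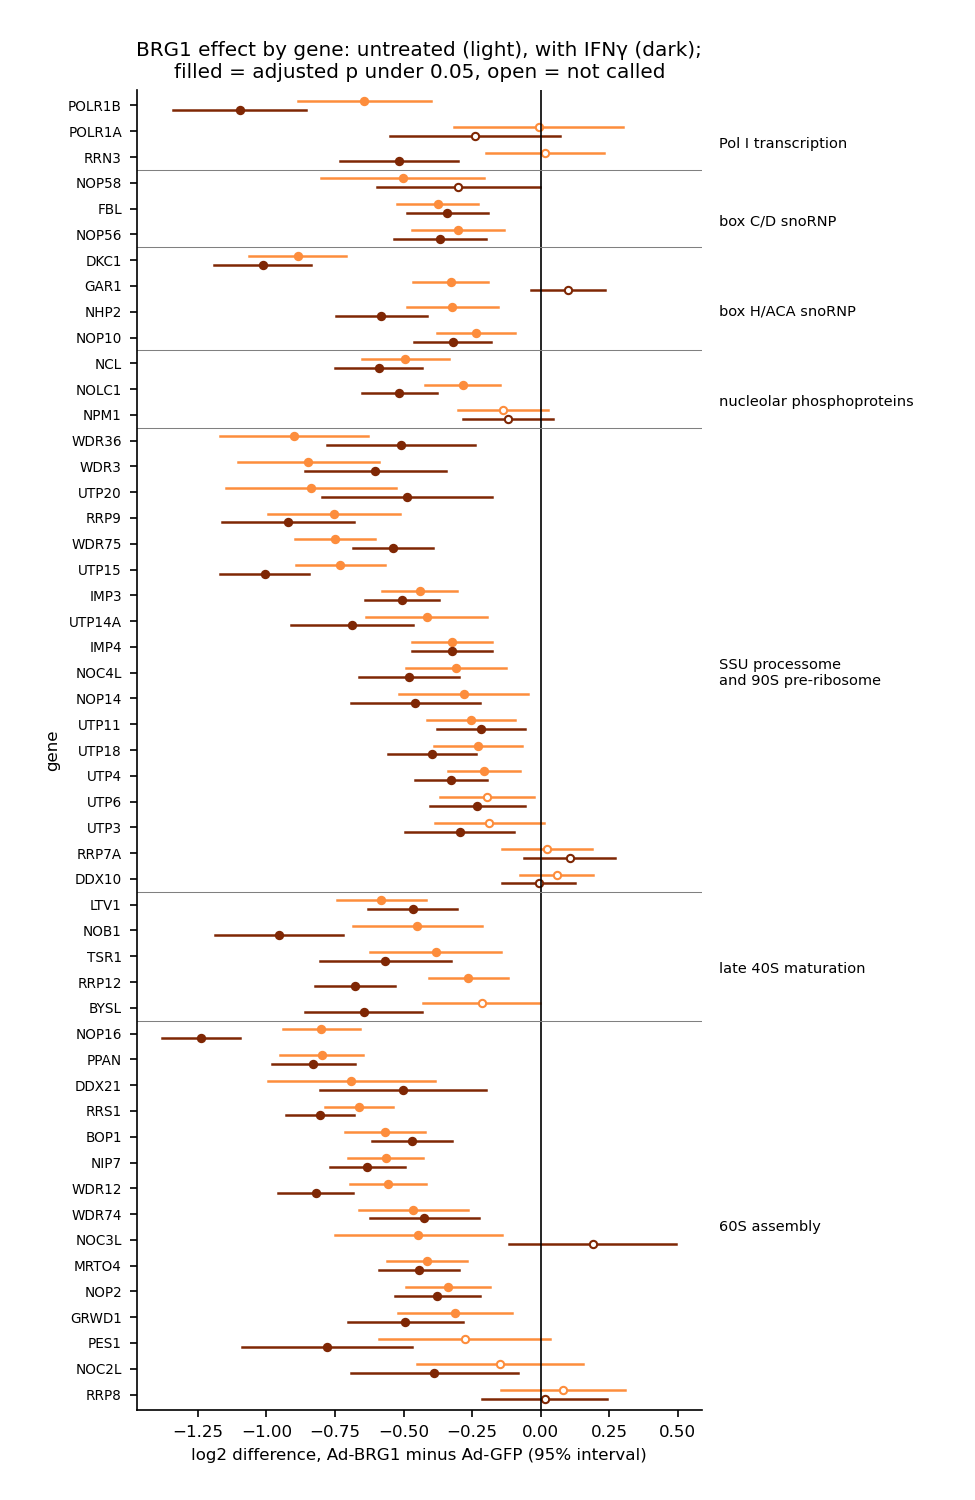
BRG1 effect (log2 difference, Ad-BRG1 minus Ad-GFP) with its 95% interval for each of the 51 genes by role, in untreated cells (light) and with IFNγ (dark), filled where called. No filled point lies above 0; 40 light and 43 dark points are filled.

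More than 1 probe passed the detection filter for 11 of the genes, giving 14 further probes. Of these, 10 were called lower and 1 higher in untreated cells, against 30.3% and 26.7% of all genes. With IFNγ 8 were called lower and 2 higher, against 32.8% and 28.3% of all genes. The probe calls came from a fit of all kept probes, over which the share called was not counted. The probes called higher belonged to WDR74 in both states and to GAR1 with IFNγ. There a second GAR1 probe gave 0.26 against 0.10 for the brightest, and the remaining one gave -0.14, not called. Further probes of NCL (-0.29 and -0.34), NOC4L (-0.03 and -0.06) and RRP7A (0.12 and -0.15) were called in neither state. WDR74 was the only one of the 11 genes with opposite calls between probes.

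In cells without BRG1, IFNγ by itself moved few of these genes, as it moved few of all genes. In Ad-GFP cells 2 of 51 were higher and 0 lower, against 3.10% and 0.977% of all genes, so these counts were near that background. At an unadjusted p under 0.05, limma gave 8 higher and 0 lower, against 977 higher and 968 lower of all 10333 genes. PES1 rose 1.50-fold (0.58, SE 0.14, adjusted p = 0.041) from the array values given above, the groups not overlapping. This call did not hold without untreated Ad-GFP replicate 1 (0.48, adjusted p = 0.15) or 2 (0.55, adjusted p = 0.13), without IFNγ-treated Ad-GFP replicate 1 (0.64, adjusted p = 0.068), 2 (0.50, adjusted p = 0.14) or 3 (0.61, adjusted p = 0.094), or without untreated Ad-BRG1 replicate 1 (0.58, adjusted p = 0.058). It was also lost without a detection filter (adjusted p = 0.051) and with a replicate block (adjusted p = 0.061). Without background correction PES1 shrank to 0.29 with the authors' average normalization, still called (adjusted p = 0.019). NOP16 rose 1.33-fold (0.41, SE 0.06, adjusted p = 0.0024), also without overlap. The median response of the 51 was 0.04, against -0.02 for all genes.

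In Ad-BRG1 cells IFNγ moved 5 of 51 genes up and 6 down, against 13.1% and 19.6% of all genes, and their median response was -0.04. NOC3L rose 1.60-fold (0.68, SE 0.14, adjusted p = 0.0039), WDR3 1.33-fold (0.42, SE 0.12, adjusted p = 0.019) and GAR1 1.30-fold (0.38, SE 0.06, adjusted p = 0.00094). BOP1 and WDR75 rose by 0.22 and 0.19. BYSL fell 1.33-fold (-0.42, SE 0.10, adjusted p = 0.0081), from 10.39, 10.24 and 10.06 to 9.93, 9.84 and 9.67, with no overlap. POLR1B fell 1.32-fold (-0.40, SE 0.11, adjusted p = 0.017) and UTP15 1.29-fold (-0.37, SE 0.07, adjusted p = 0.0033). RRP12, WDR12 and NHP2 fell by 0.37, 0.24 and 0.22.

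These IFNγ calls rest on small differences. WDR3 was not called without untreated Ad-BRG1 replicate 2 (0.37, adjusted p = 0.065) or 3 (0.33, adjusted p = 0.058) or IFNγ-treated Ad-BRG1 replicate 2 (0.36, adjusted p = 0.072). POLR1B was not called without untreated Ad-BRG1 replicate 1 (-0.37, adjusted p = 0.063) or IFNγ-treated Ad-BRG1 replicate 2 (-0.37, adjusted p = 0.058) or 3 (-0.38, adjusted p = 0.053), and its second probe gave -0.04. With the authors' average normalization, which leaves background in, POLR1B shrank to -0.087 (adjusted p = 0.29) and UTP15 to -0.083 (adjusted p = 0.25), neither called. POLR1B was also not called with quantile normalization without background correction (-0.15, adjusted p = 0.057), with scaling to the same median (-0.29, adjusted p = 0.058) or as the mean over its probes (-0.22, adjusted p = 0.11). WDR3 shrank to 0.16 with quantile normalization without background correction, still called (adjusted p = 0.040).

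The interaction is the BRG1 effect with IFNγ minus that without, from the same arrays as above. It was called for 4 of 51 genes, 1 positive and 3 negative, against 4.32% and 3.83% of all genes, shares close to that background. GAR1 had a positive interaction (0.43, SE 0.09, adjusted p = 0.014), its untreated Ad-BRG1 arrays being the low ones. A second GAR1 probe was called in the same direction (0.58) and its remaining probe was not (0.14).

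NOP16 (-0.44, SE 0.09, adjusted p = 0.015), RRP12 (-0.41, SE 0.09, adjusted p = 0.022) and RRN3 (-0.53, SE 0.14, adjusted p = 0.040) had negative ones. For NOP16 it was the Ad-GFP arrays that were higher with IFNγ, and for RRP12 the Ad-BRG1 arrays that were lower. RRN3 was higher with IFNγ in Ad-GFP cells (0.36, not called, adjusted p = 0.065) and lower in Ad-BRG1 cells (-0.17, not called). Its interaction was not called when any 1 of 8 arrays was left out, namely all 3 untreated and all 3 IFNγ-treated Ad-GFP arrays, untreated Ad-BRG1 replicate 2 and IFNγ-treated Ad-BRG1 replicate 3 (-0.44 to -0.59, adjusted p = 0.0504 to 0.0912). It was also lost with the authors' average normalization, where it shrank to -0.22 (adjusted p = 0.11), and without a detection filter (adjusted p = 0.053). That of RRP12 was not called without IFNγ-treated Ad-GFP replicate 2 or 3, IFNγ-treated Ad-BRG1 replicate 3, replicate 3 of untreated Ad-GFP or replicate 2 of untreated Ad-BRG1 (-0.37 to -0.40, adjusted p = 0.0538 to 0.0619). NOC3L had the largest positive value (0.63, SE 0.20), which was not called (adjusted p = 0.065). For 47 of 51 genes a difference between the BRG1 effects of the 2 states was not called, which does not show that they were equal.

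**Figure D4:**
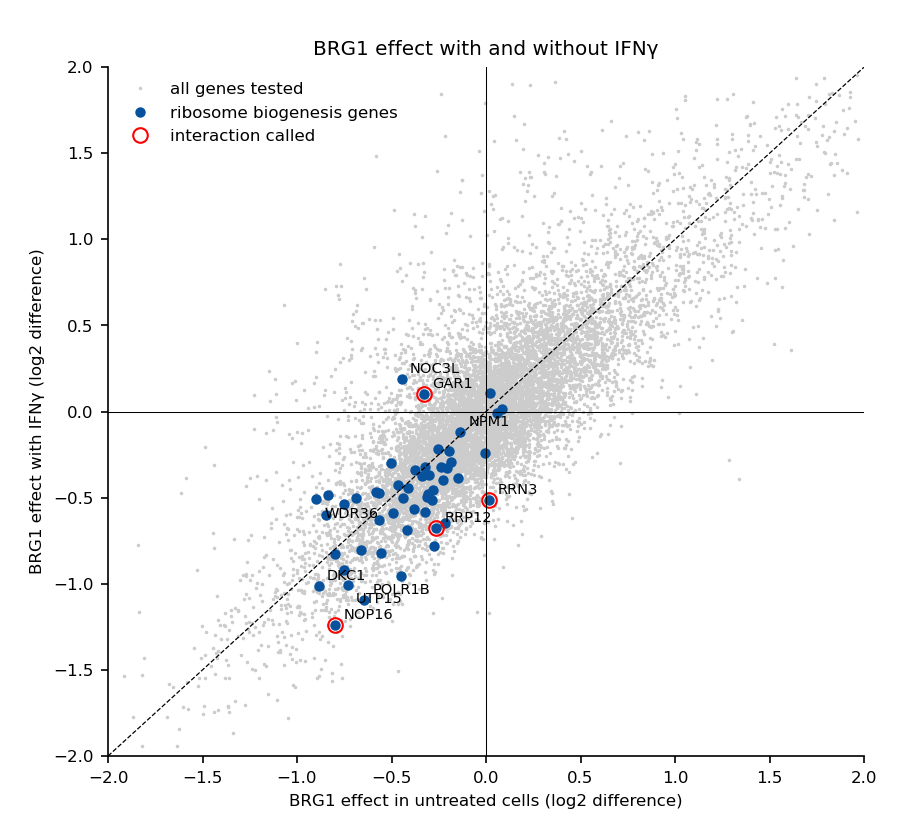
BRG1 effect in untreated cells (x axis) against that with IFNγ (y axis), both as log2 differences, for the 51 ribosome biogenesis genes (blue) over all genes tested (grey; 169 of 10333 lie outside the axes). Red rings mark the 4 genes with a called interaction, and 37 of the blue genes were called lower in both states.

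Other genes of the pathway were read from a list of 102 further biogenesis factors, 96 of them tested. In untreated cells 62 were lower and 5 higher with a median of -0.34, and with IFNγ 58 were lower and 5 higher with a median of -0.32. In percent, 64.6% were lower and 5.21% higher in untreated cells, against 30.3% and 26.7% of all genes, and 60.4% and 5.21% with IFNγ, against 32.8% and 28.3%. Lower in untreated cells were 6 of 12 genes of the Pol I machinery, 13 of 25 other SSU processome genes, 5 of 8 other 40S maturation genes, 30 of 40 other 60S assembly genes and 8 of 11 genes of the exosome, which trims precursor RNA. RIOK1, a kinase of late 40S maturation, had the largest fall on this list (-1.31, SE 0.06, without IFNγ), and the 60S factor MAK16 was next (-1.10, SE 0.07). The helicase gene DDX51 (0.70, SE 0.08) and the processome gene NOL6 (0.60, SE 0.07) had the largest rises.

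The ribosomal protein genes, whose products are the ribosome itself, were read from a separate list. Of 79 listed, 68 were tested, of which 18 were lower and 2 higher in untreated cells (median -0.09) and 29 lower and 0 higher with IFNγ (median -0.13). The shares called lower were 26.5% without IFNγ, against 30.3% of all genes, and 42.6% with it, against 32.8%. RPL34 stood apart with -1.49 (SE 0.07) without and -1.55 with IFNγ. These lists were not tested against each other.

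**Figure D5:**
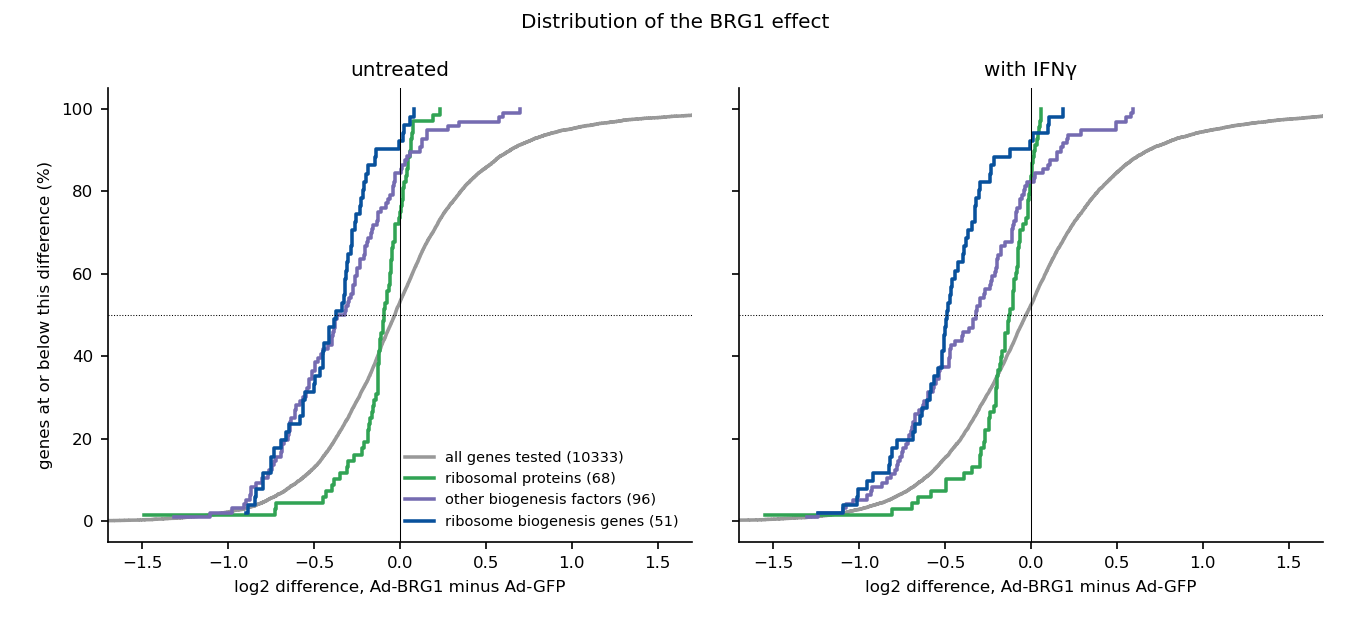
Share of genes (y axis, %) at or below a given BRG1 effect (x axis, log2 difference) for the 51 ribosome biogenesis genes, 96 other biogenesis factors, 68 ribosomal protein genes and all 10333 genes tested. Over most of the range both curves of assembly factors lie to the left of the curve of all genes, with untreated medians of -0.38 and -0.34 against -0.03, while the ribosomal protein genes cross 50% at -0.09.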

How the data were processed

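RNA was hybridised to 1 array per sample, 12 arrays in 4 groups of 3, grouped by the sample titles. The deposited raw values are the probe intensity read by the authors with BeadStudio (version not given in the sources used here), without background subtraction or normalization. Each is paired with a deposited detection p-value. The authors' second deposited set, intensity after average normalization, was used as an alternative. Probes were named from the array annotation: of 48803 probes 27578 had 1 symbol, 13 several and 21212 none.

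Background was corrected and arrays quantile-normalized with neqc of limma 3.58.1 (R 4.3.3, offset 16) on the log2 scale. A probe was kept if every array of some group detected it at p under 0.05, and the brightest probe stood for its gene. Where a group was detected on no array, its values were raised to the lowest detected value of each array before a fold was given as a bound. A linear model of the 4 group means was fitted over the 12 arrays (lmFit, eBayes, two-sided, 8 residual degrees of freedom), with Benjamini-Hochberg adjustment over 10333 genes. Scripts were tested on simulated data. Replicates are biological per the study's methods, and p-values measure the spread among these arrays. The number of arrays limits the precision.

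The genes and lists were chosen with earlier results of these data known. Array values are printed for the 3 called genes with the largest rise and the 3 with the largest fall in each comparison, and per role the largest called BRG1 effect is named. Array values of other genes (NPM1, UTP20, DDX10) were added after their values were seen. Alternatives were other normalizations, detection filters, averaging of probes, fits of the compared groups only, a replicate block and leaving out each array. Promoter windows came from RefSeq, GRCh38.p14. Plots were made in matplotlib 3.10.9 under Python 3.11.15.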

Additional observations from a re-analysis of the deposited data

Results flagged for a closer look

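In 4 genes the BRG1 effect differed between untreated and IFNγ-treated cells by a test of that difference (the limma interaction term, adjusted p under 0.05). These are 1 higher and 3 lower of 51, against 4.32% and 3.83% of all genes, shares close to that background. The difference was -0.53 for RRN3 (adjusted p = 0.040), -0.44 for NOP16 (adjusted p = 0.015), -0.41 for RRP12 (adjusted p = 0.022) and 0.43 for GAR1 (adjusted p = 0.014), on the log2 scale with 3 arrays per group. The calls of GAR1 and NOP16 held under all 19 alternatives, with adjusted p of at most 0.041 and 0.043, while those of RRN3 and RRP12 were lost under 10 and 5 of 19.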

How the results depend on the processing

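Under 8 other settings the genes called lower with BRG1 numbered 36 to 42 in untreated cells and 37 to 44 with IFNγ, and 38 to 41 and 40 to 44 when each array was left out in turn, with 0 called higher in each case. The smallest counts came with a detection p under 0.01 on every array, which leaves 44 of the genes to test. Over the 8 settings the share of all genes called lower was 16.2% to 34.8% in untreated cells and 17.9% to 36.9% with IFNγ. With each array left out it was 27.1% to 30.9% and 29.7% to 33.1%. The median BRG1 effect with IFNγ moved from -0.49 to -0.38 both with the authors' average normalization (-0.3796) and with quantile normalization (-0.3827), neither of which corrects background. Counts of the IFNγ responses were small and moved with the setting. In Ad-GFP cells the 2 higher genes became 1 without a detection filter and 1 with a replicate block, and 1 to 3 when single arrays were left out. Among all genes, the 320 called higher became 285 (of 18665 tested), 309 and 228 to 346 in turn. In Ad-BRG1 cells the 5 higher genes became 3 with scaling to the same median and 3 with only the compared groups in the fit. Over the 8 other settings 3 to 7 were higher and 5 to 9 lower. When single arrays were left out, the 5 higher genes became 2 to 7 and the 6 lower genes 3 to 8. Among all genes, the 1355 called higher became 1446 with that scaling and 915 with only the compared groups. Over the 8 settings 915 to 1713 of all genes were called higher, and 9.38% to 24.6% lower, against 19.6% in the main fit. With single arrays left out, 852 to 1575 of all genes were called higher and 1237 to 2109 lower. The 1 positive interaction became 2 with the average normalization, with quantile normalization without background correction, with the stricter detection filter and with the replicate block, and 1 to 3 when single arrays were left out. Among all genes, the 446 positive ones became 811, 745, 451 (of 7201 tested), 727 and 213 to 836 in turn. The 3 negative interactions of the 51 genes became 6 with quantile normalization without background correction, 5 with the stricter filter, 5 with the replicate block, and 1 to 5 when single arrays were left out. The share of all genes with a negative call moved too, from 3.83% to 6.92%, 7.18%, 5.91% and 1.34% to 7.59% in turn. The replicate block treats equal replicate numbers as paired; 9 of 18 pairs of same-numbered arrays correlated above 0.1 (range -0.19 to 0.44), so not every pair did, the numbers were not taken to pair the arrays, and whether they mark shared culture days is not given in the sources used here. Of 350 alternatives for 18 single-gene results, 316 kept the call, 34 lost it and 0 changed direction; the losses concern PES1, WDR3, POLR1B and UTP15 after IFNγ and the interactions of RRN3 and RRP12. The cause was not tested. Signal over background limits the folds of POLR1B, WDR3, UTP15 and UTP20.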
